A study of Homo sapiens with 14 samples.

Results

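Mapping of GATA3 on chromatin by ChIP-seq (immunoprecipitation of bound DNA, then sequencing) in MDA-MB-231 cells gave 360 regions that both libraries of FLAG-tagged A442M GATA3 lacked and that nearly every other library called. MDA-MB-231 is an established triple-negative breast cancer line. Peaks of the 12 deposited lists that shared at least 1 bp were joined into 1 region, and a library with a peak in a region was said to call it. The 360 regions were chosen by these calls: called in neither A442M-FLAG library and in 9 or 10 of the 10 other libraries, out of 78999 regions in all. Calls and scores of all 12 libraries therefore entered the choice, so the levels given here are descriptions and carry no test.

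The groups were A442M-FLAG, A442M, G444E-FLAG, G444E, WT-FLAG and WT, with 2 replicates each. A442M and G444E are point mutants of GATA3, WT is the wildtype protein, and FLAG is a short peptide tag on the C-terminal end, which per the design text keeps GATA3 protein levels up with either mutation or none. All cells were untreated and harvested on day 3, and per the labels the same GATA3 antibody was used for tagged and untagged cells. How the GATA3 forms were introduced, the promoter behind them and whether a group is 1 clone are not stated in the labels or the design text, nor whether replicates were separate cultures. Samples with an empty vector were not analysed here, and no region was set against a background.

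GATA3 is a zinc-finger transcription factor that binds DNA motifs built on the letters GATA. In breast epithelium it maintains the luminal cell state, and in T cells it directs the T helper 2 fate. Both mutated residues lie at the C-terminal end of the protein, outside the zinc fingers and next to where the tag was attached.

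A ChIP-seq peak is a stretch where fragments bound by the antibody pile up. The lists held 25248 to 51694 peaks, and the 2 longest were A442M-FLAG replicate 1 with 51694 and WT-FLAG replicate 1 with 43208, followed by A442M-FLAG replicate 2 with 42993. Each peak has a score from the authors, whose scale is not named, so it was read here as a percentile within its own list. The lowest score in every list lay between 5.00 and 5.02, so a peak under that level would count here as a missing call. Depth is unknown, since the lists give no read counts. Peaks off the placed chromosomes set 2 groups apart: A442M had 75 and 57 and WT had 110 and 84, while A442M-FLAG had 21 and 16, G444E-FLAG 23 and 16, G444E 25 and 16 and WT-FLAG 24 and 18. The part of this divide between libraries in the levels given below was not tested.

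Of the 360 regions, 14 (3.89%) overlapped a RefSeq promoter window (build GRCh38.p14, 250 bases before to 50 after a transcription start), against 542 of 15235 (3.56%) of the regions that met the rule's call count elsewhere and that at least 1 A442M-FLAG library called. The windows of 4 of these are shown because they place a missing region on a start site. LOC124900719 and LOC124907754 are the ones whose window holds a GATA motif inside the region. The NIF3L1 window, 1 of 4 for that gene, belongs to the strongest region of the 14, and its motif lies outside the region. CXCL2, a neutrophil chemokine gene, has a window wholly inside its region and none of the motifs. Capitals mark AGATAA or AGATAG or TGATAA or TGATAG on either strand, which may overlap one another, and each sequence runs 5′ to 3′ on the strand of its gene.
LOC124900719 (chr4:76832130-76832429, minus strand): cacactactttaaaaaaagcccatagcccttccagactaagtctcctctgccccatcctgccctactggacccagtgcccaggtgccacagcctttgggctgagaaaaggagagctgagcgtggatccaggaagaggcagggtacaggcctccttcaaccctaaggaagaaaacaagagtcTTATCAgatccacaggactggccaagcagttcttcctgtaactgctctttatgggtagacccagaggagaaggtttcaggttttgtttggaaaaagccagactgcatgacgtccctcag
LOC124907754 (chr2:37345006-37345305, minus strand): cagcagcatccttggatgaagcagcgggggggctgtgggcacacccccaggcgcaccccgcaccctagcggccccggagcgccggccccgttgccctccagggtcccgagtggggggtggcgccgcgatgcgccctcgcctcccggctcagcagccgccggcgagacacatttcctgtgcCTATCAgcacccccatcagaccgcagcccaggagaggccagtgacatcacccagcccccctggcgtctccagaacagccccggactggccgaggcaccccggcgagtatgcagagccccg
NIF3L1 (chr2:200889135-200889434, plus strand): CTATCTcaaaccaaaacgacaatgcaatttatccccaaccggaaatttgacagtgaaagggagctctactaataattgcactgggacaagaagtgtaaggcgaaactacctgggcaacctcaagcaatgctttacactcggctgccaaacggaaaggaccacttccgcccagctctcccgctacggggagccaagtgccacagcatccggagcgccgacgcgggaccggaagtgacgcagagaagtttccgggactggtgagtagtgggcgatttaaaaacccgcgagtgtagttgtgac
CXCL2 (chr4:74099146-74099445, minus strand): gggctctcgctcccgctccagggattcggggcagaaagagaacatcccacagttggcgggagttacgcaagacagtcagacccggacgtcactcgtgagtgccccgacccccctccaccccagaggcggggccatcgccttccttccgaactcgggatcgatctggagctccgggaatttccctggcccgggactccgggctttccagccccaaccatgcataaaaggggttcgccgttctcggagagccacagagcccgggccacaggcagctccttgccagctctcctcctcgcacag
The motif occurred in 8769 of all 35116 promoter windows (24.97%), so a match in a window this long is common, and a match is a description of the letters and not a binding site. The 14 regions met 22 windows of 18 genes, and 6 of these windows held the motif. Windows of a gene can overlap and share a motif, as at NIF3L1, and with the first window of each gene 4 held it. The motif lay inside the region in 2 of the 14.

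The same rule gave very different numbers in the 6 groups. Among the 15595 regions called in 9 or 10 of the libraries outside A442M-FLAG, 360 were called by neither A442M-FLAG library (2.31%), which is the choice itself. The counts for the other groups, each over its own set of regions, were 34 for A442M (0.225%), 78 for G444E-FLAG (0.505%), 229 for G444E (1.44%), 24 for WT-FLAG (0.16%) and 3509 for WT (18.2%). Only untagged WT lacked more such regions than A442M-FLAG. Its lists were the shortest, with a mean of 27069 peaks, whereas those of A442M-FLAG were the longest, with a mean of 47343.5. G444E lists averaged 29063 peaks, G444E-FLAG lists 35207.5, A442M lists 37889 and WT-FLAG lists 40081.5. The part of list length in these counts was not tested. When every list was shortened to its 25248 best-scoring peaks, the counts became 958 for A442M-FLAG, 67 for A442M, 58 for G444E-FLAG, 63 for G444E, 29 for WT-FLAG and 1977 for WT. A further 1185 regions (7.60%) were called in 1 A442M-FLAG library, and 14050 (90.1%) in both.

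**Figure D1:**
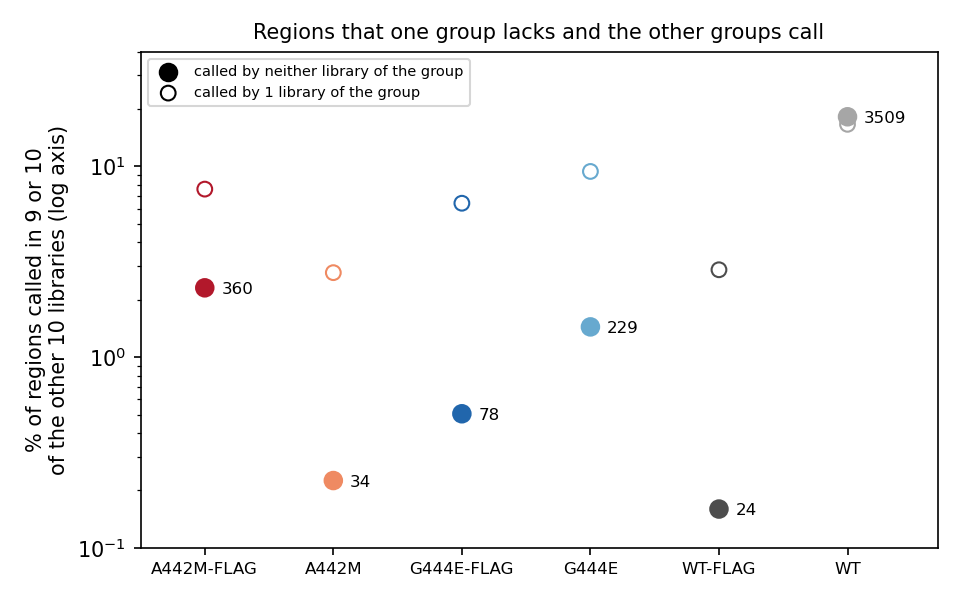
Share of regions, on a log axis in percent, that a group lacks among those called in 9 or 10 of the 10 libraries outside that group; filled points stand for regions called by neither library of the group, with their number, and open points for regions called by 1. A442M-FLAG lacked 360 regions and untagged WT 3509, and the other groups lacked 24 to 229.

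The 360 regions were of middling strength where they were called, with the highest levels in untagged WT. Their median percentile over the calling libraries had a median of 53.2, against 73.3 for the rest of the 15595 regions. The medians by library were 61.5 and 61.5 in A442M, 50.5 and 44.5 in G444E-FLAG, 52.0 and 49.8 in G444E, 49.98 and 45.8 in WT-FLAG, and 68.3 and 69.5 in WT. By percentile, both WT libraries and both A442M libraries lay above all the others, which are the libraries with fewer peaks off the placed chromosomes. In regions called in all 12 libraries the medians ran from 69.8 to 83.1 in the same 10 lists, and the difference, the 360 regions minus those, was -33.1 and -35.1 points in the WT-FLAG lists and -4.44 and -0.347 points in the WT lists.

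Because a percentile depends on how long a list is, each score was also given a standing: the percent of the 10933 regions called in all 12 libraries that scored lower in the same list. The median standing of the 360 regions was 17.2 and 19.4 in A442M, 11.1 and 12.1 in G444E-FLAG, 17.9 and 19.1 in G444E, 8.94 and 8.42 in WT-FLAG, and 43.9 and 49.5 in WT. WT-FLAG was the lowest group and WT by far the highest. A442M lay level with G444E by standing. Only WT thus stood above all the libraries with fewer peaks off the placed chromosomes, unlike the order by percentile. For all 15595 regions the median standing lay between 38.4 and 43.8 in every one of these 10 lists, so only in WT did the 360 regions stand level with the others.

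Single calls lacking among the 10 other libraries, which the rule also used, are given beside the share lacking in the rest of the 15595 regions. A442M replicates 1 and 2 lacked 8 (2.22%) and 3 (0.833%) of the 360, against 0.249% and 0.315% of the rest. G444E-FLAG lacked 12 (3.33%) and 53 (14.7%), against 0.630% and 2.49%. G444E lacked 14 (3.89%) and 27 (7.50%), against 1.57% and 2.76%. WT-FLAG and WT stood in opposite order in the 360 and in the rest. WT-FLAG lacked 25 (6.94%) and 26 (7.22%), against 0.564% and 0.866%. WT lacked 7 (1.94%) and 15 (4.17%), against 5.93% and 8.68%. In all, 170 regions were called in 10 of the other 10 libraries and 190 in 9. The median of their percentiles was 59.7 in the 170 and 44.9 in the 190.

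**Figure D2:**
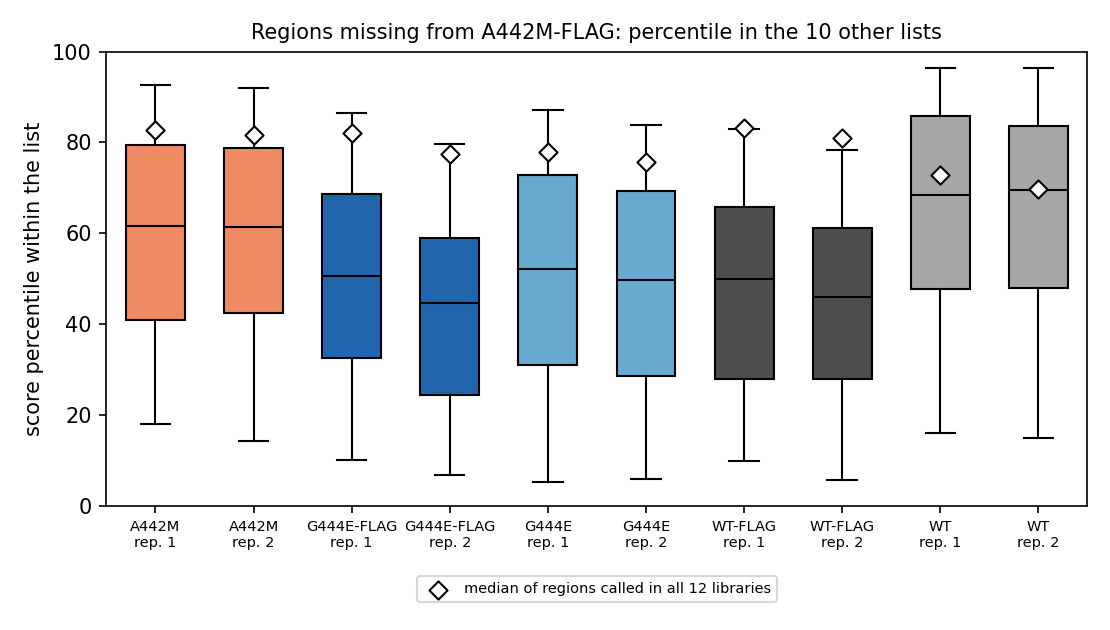
Score percentile within the list (vertical axis, 0 to 100) of the 360 regions in each of the 10 libraries outside A442M-FLAG; boxes span the quartiles with the median as a line, whiskers run from the 5th to the 95th percent of regions, and diamonds are the medians of the 10933 regions called in all 12 libraries. The box medians of WT lie close to the diamonds, at 68.3 and 69.5 against 72.7 and 69.8, while those of WT-FLAG, 49.98 and 45.8, lie far under 83.1 and 80.9.

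Region by region, the missing regions more often stood lower than higher in WT-FLAG against WT. These groups also differed in peaks off the placed chromosomes, 24 and 18 in WT-FLAG and 110 and 84 in WT. Tag and library thus cannot be told apart here. Of the 287 regions called in all 4 libraries of WT-FLAG and WT, 184 (64.1%) had a lower percentile in both WT-FLAG libraries than in both WT libraries, and 17 (5.92%) had a higher one. Over all regions called in those 4 libraries, whether missing from A442M-FLAG or not, 19.4% were lower in WT-FLAG. In the rest of the 15595 regions 17.5% were lower and 45.8% higher, so by percentile the balance ran the other way. Percentiles of lists of unequal length are set side by side here, and the standing does not depend on that length. By standing, WT-FLAG minus WT had a median of -34.1 points in the missing regions. It was -1.46 points in regions both A442M-FLAG libraries called. Most of those regions define the standing, so a small value there follows largely from the definition. It cannot show whether the balance turned.

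The other contrasts leaned in the same direction with 1 exception. G444E-FLAG lay below G444E in 54 of 254 regions (21.3%), against 6.83% in the rest and 6.32% of all regions called in the 4 libraries, and above it in 30 (11.81%), against 24.3% in the rest. Without the tag, A442M lay below WT in 142 of 327 regions (43.4%), against 7.45% in the rest and 11.9% of all regions, and above it in 30 (9.17%), against 47.3% in the rest. Untagged G444E lay below WT in 188 of 297 (63.3%), against 21.7% in the rest and 24.2% of all regions, and above it in 15 (5.05%), against 33.4% in the rest. The exception was G444E-FLAG against WT-FLAG, where 28 of 244 (11.5%) were lower and 38 (15.6%) higher, while the rest had 19.1% lower and 5.98% higher and all regions 21.9% lower. These comparisons share libraries with each other, and the WT libraries enter 3 of them. They too set percentiles of lists of unequal length side by side.

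Among the 170 regions called in all 10 other libraries, the highest of the 10 percentiles came from a WT library in 114 (67.1%), against 13.9% of the 11569 regions called in those 10 and in at least 1 A442M-FLAG library. The lowest came from a WT-FLAG library in 62 (36.5%, against 10.99%) and from a G444E-FLAG library in 51 (30%, against 16.3%). It came from G444E in 38 (22.4%, against 20.3%), from A442M in 9 (5.29%, against 5.09%) and from WT in 10 (5.88%, against 47.3%). Over all 360 regions, both WT percentiles exceeded every other library's in 115 (31.9%), against 621 (4.08%) of the rest. These ranks also set lists of unequal length side by side. Regions called in all 12 libraries had median percentiles of 72.7 and 69.8 in WT, against 75.6 to 83.1 in the other lists outside A442M-FLAG. The part of list length in the shares of the rest was not tested.

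The lower standing in WT-FLAG than in WT was present at every level of strength. The 15595 regions were sorted by their median percentile in the 10 other lists and divided into 5 bins of 3119. From the weakest bin to the strongest, 161, 89, 60, 42 and 8 regions were missing from A442M-FLAG, or 5.16%, 2.85%, 1.92%, 1.35% and 0.256%. The missing share was smaller in each stronger bin, and the regions called in 1 A442M-FLAG library followed the same order, from 15.8% in bin 1 to 2.53% in bin 5. The median difference in standing, WT-FLAG minus WT, was -21.9, -37.6, -37.5, -56.2 and -32.1 points in the missing regions of the 5 bins. For regions that both A442M-FLAG libraries called it stayed between -3.77 and 1.10. Regions called in 1 A442M-FLAG library lay between, at -12.1 to -35.1 points. Of the 11811 regions called in both A442M-FLAG libraries and in all 4 of WT-FLAG and WT, 10933 are those that define the standing. A small difference over that class therefore follows largely from the definition. Bin 5 rests on 8 missing regions and bin 4 on 38 with all 4 libraries.

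Over all bins, the median difference was -34.1 points for regions called in neither A442M-FLAG library, -22.2 for those called in 1 and -1.46 for those called in both. The matching difference, G444E-FLAG minus G444E, was small: -5.50, -2.60 and 0.50 points. In WT alone the 3 classes lay close together, with median standings of 46.4, 40.7 and 46.4, whereas in WT-FLAG they were 9.65, 13.2 and 42.8. The missing regions were also narrower, with a median merged width of 577.5 bp, against 597 bp for regions called in 1 A442M-FLAG library and 865 bp for those called in both. A merged width spans the peaks of all libraries that call a region, and by the rule the missing regions hold none from A442M-FLAG. The part of this in the widths was not tested.

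**Figure D3:**
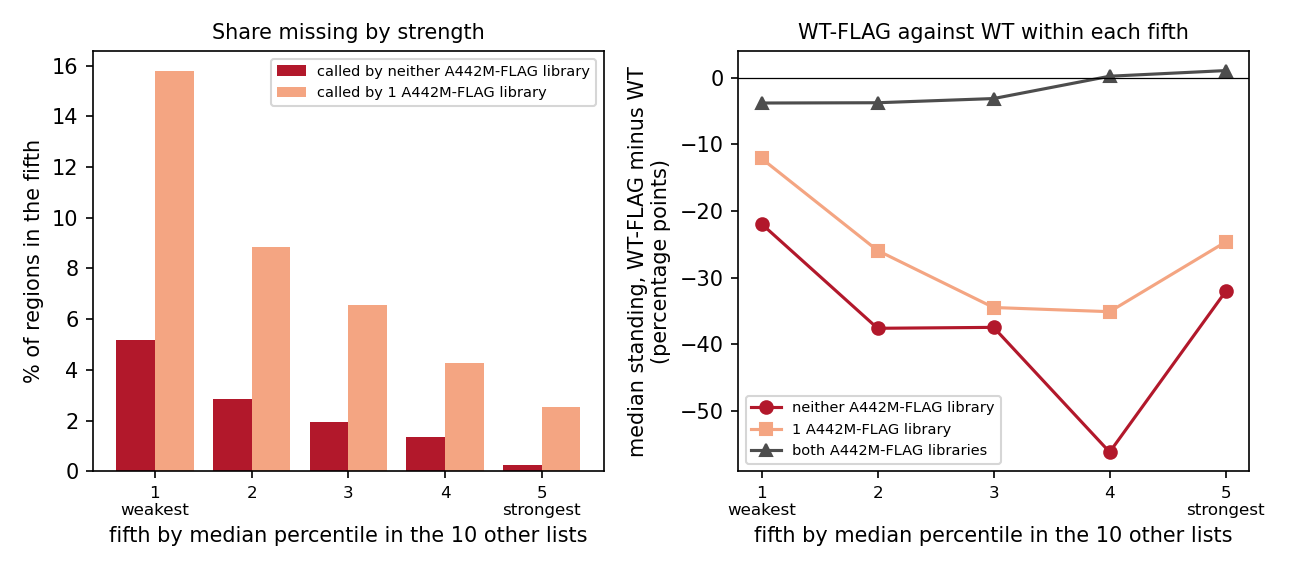
Left, percent of regions in each strength bin called by neither or by 1 A442M-FLAG library; right, median standing in WT-FLAG minus that in WT, in percentage points, for regions called by neither, 1 or both A442M-FLAG libraries. The missing share falls to 0.256% in the strongest bin. On the right the missing regions lie between -21.9 and -56.2 points and regions called by both between -3.77 and 1.10. Most regions called by both also define the standing, so their small difference follows largely from the definition.

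The values next to the limits of the rule were as follows. Just inside it, 190 regions had 1 call lacking among the 10 others. Just outside it, 636 regions were called in 1 A442M-FLAG library and in all 10 others, 423 of them by replicate 1 and 213 by replicate 2, and their median percentile in the A442M-FLAG list that called them was 42.3. Another 294 regions were called in neither A442M-FLAG library and in 8 others. Some regions outside the limits were stronger than any inside. The strongest with 1 A442M-FLAG call lay 30934 bp from STK31, a kinase gene (chr7:23863213-23863682), with a median percentile of 99.4 and a percentile of 94.8 in A442M-FLAG replicate 2. The next lay inside POLN, 10439 bp from the end of HAUS3 (chr4:2217714-2218106), at 98.9, and the one after it at chr6:2542821-2543234, at 98.6. The strongest with 8 other calls lay inside GNA15, a G protein subunit gene (98.4), inside IKZF3, a lymphoid zinc-finger factor gene (95.7), and inside RELN, the reelin gene (94.9). Each of these 3 lacked G444E-FLAG replicate 2 and WT-FLAG replicate 2.

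The strongest of the 360 regions reached a median percentile of 94.0, and the 20 strongest went down to 86.2. A region takes its name from the protein-coding gene with the nearest end, up to 100 kb away, with no claim that this gene is regulated from it: 13 of the 20 had such a gene and 7 had none. In 10 of the 20 both WT libraries had the highest percentiles of all, and in 17 the lowest percentile was in a WT-FLAG or G444E-FLAG library. These groups supply 4 of the 10 libraries. Among the 170 regions called in all 10, the lowest was in WT-FLAG in 36.5% and in G444E-FLAG in 30%. Among the regions called in those 10 and in at least 1 A442M-FLAG library, the shares were 10.99% and 16.3%. Of the 20, 12 were called in all 10 other libraries and 8 lay inside a protein-coding gene span.

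The strongest of all lay on chromosome X (chrX:13151863-13152278), 107450 bp from FAM9C, the nearest gene. Its percentiles were 93.8 and 96.7 in A442M, 89.4 in G444E-FLAG replicate 1 with no call in replicate 2, 94.0 and 95.2 in G444E, 92.5 and 90.9 in WT-FLAG and 98.9 and 98.1 in WT. Both A442M-FLAG libraries had a peak 1531 and 1481 bp away. All libraries other than G444E-FLAG replicate 2 had a peak at 1416 to 1537 bp too, while G444E-FLAG replicate 2, which also lacked this region, had its nearest peak 23331 bp away.

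The region 38004 bp from HHIPL2, a relative of the hedgehog-interacting protein (chr1:222484039-222484481), came next. It stood at 94.9 and 93.4 in A442M, 95.4 and 82.2 in G444E-FLAG, 90.8 in G444E replicate 1 with no call in replicate 2, 87.3 and 84.0 in WT-FLAG and 96.6 and 94.2 in WT. WT-FLAG lay under WT in both replicates here, and a weaker missing region lay in the same neighbourhood (chr1:222489554-222489869), at a median of 35.4.

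A region inside ADGRF5, an adhesion G protein-coupled receptor gene of lung and endothelium (chr6:46932442-46932892), was called in all 10. Its percentiles were 94.4 and 90.8 in A442M, 95.2 and 84.1 in G444E-FLAG, 96.9 and 90.5 in G444E, 92.2 and 83.5 in WT-FLAG and 99.1 and 97.7 in WT. The nearest A442M-FLAG peak lay 6574 bp away.

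Of the regions with no gene end within 100 kb, that at chr4:54525675-54526107 lay 132066 bp from KIT, the stem cell factor receptor gene. It had 96.1 and 95.6 in A442M, 92.6 in G444E-FLAG replicate 1 only, 91.6 and 93.0 in G444E, 84.6 and 72.3 in WT-FLAG and 99.2 and 99.2 in WT. WT and WT-FLAG did not overlap. The region at chr21:35401542-35401953 lay 352445 bp from RUNX1, a partner factor of GATA proteins, and ranged from 84.0 in G444E-FLAG replicate 2 to 97.2 in WT replicate 1. Both A442M-FLAG libraries had a peak 712 and 705 bp from it. The region at chr8:82690679-82691250 had the widest A442M-FLAG gap of the 20, 121611 bp in replicate 1 and 178267 bp in replicate 2, and its percentiles ran from 76.1 in G444E-FLAG replicate 1 to 97.3 in WT replicate 2. At chr13:98972604-98972982, inside DOCK9, a Cdc42 activator gene, they ran from 84.5 to 94.1. The regions at chr6:16947481-16947944 and chr1:234975069-234975493 had medians of 90.5 and 88.2.

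BCL3, a nuclear partner of NF-kappaB, had a region 12608 bp from its end (chr19:44734843-44735351). It stood at 89.7 and 86.9 in A442M, 92.1 and 83.7 in G444E-FLAG, 92.7 and 92.6 in G444E, 87.1 and 78.0 in WT-FLAG and 94.9 and 92.3 in WT. The tagged forms of G444E and WT each lay under their untagged counterparts in both replicates. A region inside GSG1L, an accessory subunit gene of AMPA receptors (chr16:27839383-27839849), had 85.3 and 86.9 in WT-FLAG and 98.3 and 97.6 in WT.

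ARAP3, a regulator of Arf GTPases, had a region 31856 bp away (chr5:141713810-141714363) with the smallest gap of all 360: an A442M-FLAG peak lay 317 bp from it in replicate 2 and 384 bp in replicate 1. The other 10 lists also had such a neighbour, at 224 to 326 bp. Its percentiles were 81.1 and 68.4 in WT-FLAG and 95.3 and 95.3 in WT. F2RL1, the gene of protease-activated receptor PAR2, had a region 4658 bp from its end (chr5:76814062-76814683) with 85.9 and 50.4 in WT-FLAG and 96.1 and 93.4 in WT. ZNF792, a zinc-finger gene, held a region 1631 bp from its end (chr19:34962346-34962850) that WT-FLAG replicate 1 lacked; it stood at 41.7 in WT-FLAG replicate 2 and at 98.0 and 94.7 in WT. In each of these 3 regions WT-FLAG lay under WT without overlap.

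JUN, a subunit of the AP-1 transcription factor, had a region 31037 bp from its end (chr1:58814644-58815525). Its percentiles were 92.4 and 91.0 in A442M, 77.1 and 72.1 in G444E-FLAG, 92.4 and 84.7 in G444E, 84.7 and 76.3 in WT-FLAG and 96.1 and 96.5 in WT. Each tagged pair lay under its untagged pair. A442M-FLAG had peaks 656 and 596 bp away, as had the other lists at 592 to 1033 bp.

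TMEM72 had a region 7832 bp away (chr10:44903112-44903899) with 69.3 and 42.1 in WT-FLAG and 90.6 and 92.7 in WT. KCNIP4, a potassium channel partner, held a region (chr4:21879159-21879656) with 89.7 and 53.7 in WT-FLAG and 92.1 and 86.5 in WT, which overlapped. KMT2C, a histone H3 lysine 4 methyltransferase, held a region (chr7:152336749-152337171) that stayed between 79.8 and 87.3 in all 10 lists. ZNF174, a zinc-finger repressor gene, held one (chr16:3404069-3404645) with 73.1 and 83.9 in A442M, 81.2 and 88.4 in G444E-FLAG, 92.0 and 95.3 in G444E, 77.4 and 82.5 in WT-FLAG and 92.0 and 95.1 in WT. WT overlapped G444E there and lay above the other 3 groups. HECW2, a ubiquitin ligase gene, held one (chr2:196500529-196501097) with 93.1 and 94.5 in A442M and 95.2 and 94.5 in WT, so that WT was barely above A442M, while G444E replicate 1 lacked it.

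**Figure D4:**
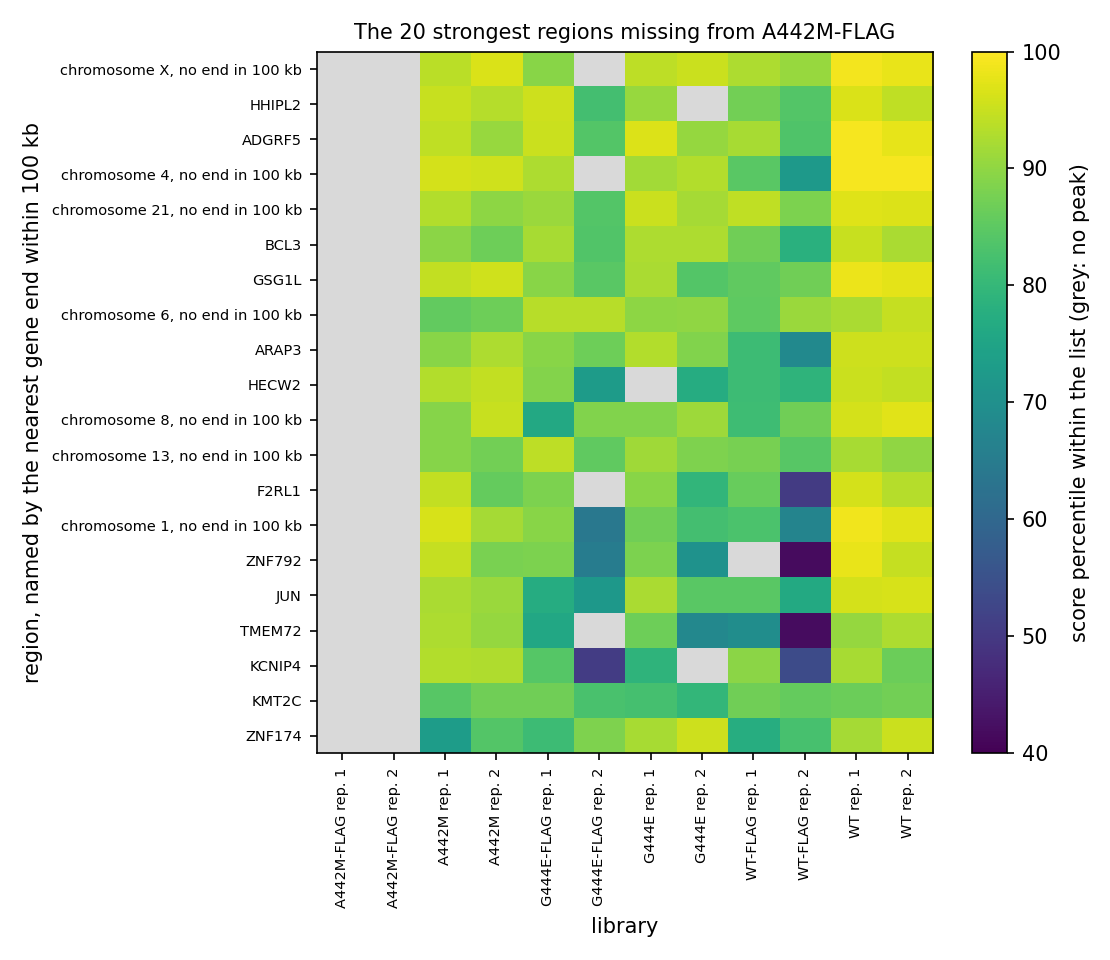
Score percentile within the list (colour, 40 to 100) of the 20 strongest regions missing from A442M-FLAG, strongest at the top, in the 12 libraries; grey marks no peak. The A442M-FLAG columns are grey by the choice of regions, the WT columns are the brightest in 10 of the 20, and the darkest cells, 41.7 and 42.1, lie in WT-FLAG replicate 2.

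A missing call did not mean an empty stretch of chromosome. The nearest A442M-FLAG peak lay a median of 8658.5 bp from the region, from 317 bp to 613701 bp, and within 10 kb of 190 regions. It lay within 1 kb of 45 regions and beyond 100 kb of 11. By library, the medians were 10351 bp in A442M-FLAG replicate 1 and 14208.5 bp in replicate 2. In each of the 10 other lists, with peaks inside the 360 regions left out, the nearest peak lay a median of 10378.5 to 19561 bp from the 360. A442M-FLAG peaks thus surrounded the missing regions about as densely as those of the other libraries. Its lists were also the longest, with a mean of 47343.5 peaks against 27069 to 40081.5 in the other groups. The region with the widest gap lay on chromosome 6 with a median percentile of 77.6. LARS2, a mitochondrial leucyl-tRNA synthetase gene, PIEZO2, a mechanosensitive channel gene, and BACE2, a protease gene, were among the named genes with gaps over 100 kb, at 118091, 143758 and 116946 bp.

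The names of the peaks bear on whether a peak was called and then removed by the authors, since names are numbered in genome order with gaps. The A442M-FLAG peaks on either side of a region had consecutive numbers, with no absent number between them, for 272 regions in replicate 1, for 255 in replicate 2 and in both for 203 (56.4%). For those 203 no numbered peak was removed there in either library. Over the whole lists, 92.0% of the numbers were present in A442M-FLAG replicate 1 and 91.8% in replicate 2. The share with consecutive numbers was not computed for other stretches, so the 56.4% has no base to be read against. For 36 regions a number was absent in both libraries. Of the 20 strongest, 14 had consecutive numbers in both libraries and 1 had an absent number in both. Regions called in both A442M-FLAG libraries and at most 1 other, 5168 in all, lay within 10 kb of 23 of the missing regions (6.39%), against 9.47% of the rest of the 15595.

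The positions of the missing regions were set beside those of the others. Of the 360, 159 (44.2%) lay inside a gene span, against 51.0% of the rest of the 15595 and 51.9% of all 78999 regions. The gene table gives spans without exons, so exonic and intronic regions were not told apart. Within 1 kb of a gene end were 22 (6.11%), against 4.23% of the rest and 6.28% of all regions, and within 5 kb 74 (20.6%), against 14.7% and 16.9%. Transcription starts lay within 1 kb of 19 (5.28%), against 3.12% and 4.86%, and 174 (48.3%) lay beyond 50 kb of one, against 47.6% and 46.7%. These shares are descriptions, and none is called particular to the missing regions.

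They were spread over every chromosome except Y, on which none of the 15595 regions lay. Chromosome 1 held 39, chromosome 6 held 35 and chromosome 10 held 28. As a share of the 15595 regions on the chromosome, the missing ones ran from 1.15% on chromosome 15 and 1.33% on chromosome 22 to 3.18% on X, 3.24% on chromosome 10 and 3.47% on chromosome 18. The last rests on 11 regions and the lowest on 5.

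The 22 regions within 1 kb of a gene end were all weaker than the strongest 20. Their median percentiles ran from 8.91 to 82.8 with a median of 49.8, and 12 of them were called in all 10 other libraries. NIF3L1, whose promoter is shown above, had the highest (chr2:200889342-200889751). It stood at 94.5 and 89.2 in A442M, 89.9 and 56.4 in G444E-FLAG, 76.4 and 72.7 in G444E, 74.6 and 59.1 in WT-FLAG and 96.0 and 93.2 in WT. WT lay above both tagged groups without overlap.

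Several of these genes act in signalling. CXCL2 (chr4:74099014-74099810) had 70.6 and 71.8 in A442M, 56.4 and 55.4 in G444E-FLAG, 52.4 and 48.7 in G444E, 53.0 and 51.0 in WT-FLAG and 63.5 and 64.5 in WT, so A442M was the highest here. CSF2, the gene of the cytokine GM-CSF (chr5:132076291-132077189), had 39.4 and 49.8 in WT-FLAG and 85.6 and 87.1 in WT. LATS1, a Hippo pathway kinase gene (chr6:149718402-149718733), had 71.3 and 64.0 in WT-FLAG and 74.7 and 60.6 in WT, which overlapped. WNT10B, a Wnt ligand gene (chr12:48970994-48971879), stayed at 28.4 or lower in every list.

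Others act in metabolism and housekeeping. DERA, a deoxyribose phosphate aldolase gene (chr12:15911268-15912332), had 57.6 and 61.1 in WT-FLAG and 85.7 and 83.6 in WT. The Elongator subunit gene ELP2 had 54.8, the Integrator subunit gene INTS13 39.6, the glutaminyl cyclase gene QPCT 37.5 and the ubiquitin ligase gene MARCHF6 76.3. The region at ELP2 also covered the whole promoter window of SLC39A6, which is in none of the gene lists used below. SAP30, a subunit of the Sin3 histone deacetylase complex, had the lowest of the 22 at 8.91. Further ones lay at ADGRF1, ZNF441, WDR44, CIMIP6, MEGF10, MAP1S, ACSM6, SAA2-SAA4, LYZL2 and ARHGAP18, with medians of 23.4 to 60.6. The region that covers the LOC124900719 promoter (chr4:76831958-76832527) lay beyond 1 kb of a protein-coding gene and ranged from 50.5 in A442M replicate 2 to 68.8 in G444E replicate 1.

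Lists of genes from pathways linked to GATA3 and breast cancer, and of genes of other cell types, were set beside the missing regions. Within 50 kb of a gene end there was 1 for 6 of 178 listed genes (3.37%), against 387 of all 20037 protein-coding genes (1.93%). The count was 0 of 20 luminal, 0 of 16 basal, 0 of 16 Hippo target, 0 of 16 GATA family and cofactor, 0 of 16 T cell, 0 of 12 neuronal and 0 of 12 muscle genes. Genes with at least 1 of the 15595 regions within 50 kb numbered 13 of 20 luminal, 12 of 16 basal, 16 of 16 Hippo target, 12 of 16 GATA family and cofactor, 5 of 16 T cell, 7 of 12 neuronal and 1 of 12 muscle genes. A count of 0 in a list this short is not set apart from the share over all genes. The listed genes with a missing region were JUN and ATF3 of 10 AP-1 genes, SPARC of 16 mesenchymal, SMAD7 of 16 TGF-beta, LAMA4 of 16 integrin and laminin and KMT2D of 15 chromatin modifier genes.

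ATF3, a stress-induced AP-1 partner gene, held its region (chr1:212595955-212596493). It stood at 86.9 and 85.2 in A442M, 82.6 and 60.02 in G444E-FLAG, 86.2 and 74.9 in G444E, 78.8 and 57.2 in WT-FLAG and 96.6 and 94.5 in WT. As at JUN, WT was the highest and both tagged groups were under WT. SPARC, a matrix glycoprotein gene, held a region 1665 bp from its end (chr5:151685025-151685476), with 84.4 and 65.2 in A442M, 81.3 and 64.6 in G444E-FLAG, 72.0 and 59.7 in G444E, 77.0 and 66.9 in WT-FLAG and 78.7 and 70.5 in WT. Its groups overlapped, and replicate 1 was above replicate 2 in each. LAMA4, a laminin chain gene, held a region (chr6:112216519-112217629) with 51.0 and 40.3 in WT-FLAG and 74.4 and 67.6 in WT. It stood at 50.9 and 48.7 in A442M, 50.3 and 9.67 in G444E-FLAG and 14.01 and 9.44 in G444E. WT was the highest there, but untagged G444E lay below WT-FLAG in both replicates and was not above G444E-FLAG in either.

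SMAD7, an inhibitor of TGF-beta signalling, had a region 46267 bp away (chr18:48997019-48997446), called in all other libraries but G444E-FLAG replicate 2. It stood at 78.4 and 58.0 in A442M, 73.5 in G444E-FLAG replicate 1, 79.5 and 73.0 in G444E, 78.1 and 45.6 in WT-FLAG and 88.3 and 67.4 in WT, with overlap between groups. KMT2D, a histone methyltransferase gene, was listed through the weak WNT10B region, 47542 bp from its end.

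Most missing regions stood alone: 241 of 360 (66.9%) had no other within 1 Mb. The 119 others had a neighbour, and 27 of these lay in 8 stretches of 3 or 4. These counts are given without matching ones for other regions, so they have no base to be read against. The densest stretch ran over MEP1A, ADGRF5 and ADGRF1 (chr6:46848988-46998871) and held 4 missing regions among 16 in 149884 bp. In this stretch A442M-FLAG called 7 and 6 of the 16 regions, A442M 12 and 11, G444E-FLAG 11 and 10, G444E 13 and 10, WT-FLAG 10 and 10 and WT 15 and 13. The A442M-FLAG counts were the lowest, and 4 of the 16 regions are absent from them by choice. Of the 4 other regions there called in 9 or 10 of the other libraries, A442M-FLAG called 4 and 3, and of the 8 called in fewer libraries it called 3 and 3. The 4 missing regions differed in strength: besides the strong one inside ADGRF5, their medians were 74.1 near MEP1A, a metalloprotease gene, 16.8 for a second region inside ADGRF5 and 60.6 at the end of ADGRF1, another adhesion receptor gene.

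**Figure D5:**
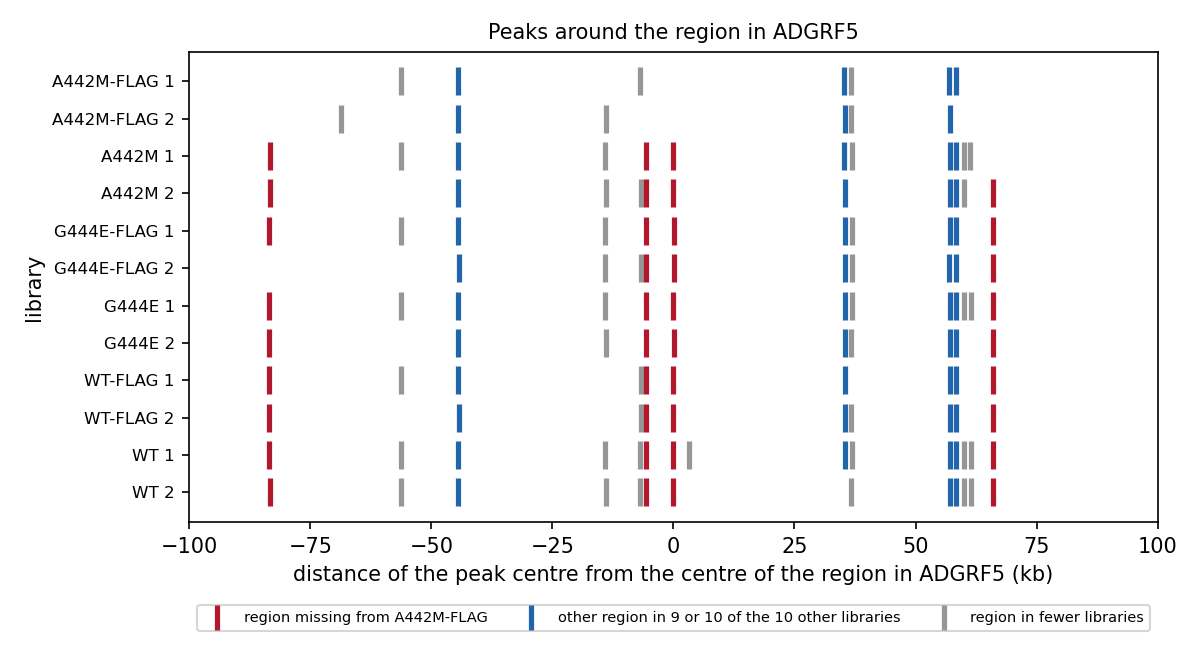
Peaks of the 12 libraries around the region inside ADGRF5; the horizontal axis is the distance in kb of a peak's centre from the centre of that region and each line of marks is a library. Red marks are the 4 regions missing from A442M-FLAG, blue marks are other regions called in 9 or 10 of the libraries outside A442M-FLAG, of which it called 4 and 3 of 4, and grey marks are regions called in fewer.

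A stretch over HECW2 and CCDC150 (chr2:196239627-196696757) held 4 missing regions among 37, with medians of 52.8 to 89.0. A442M-FLAG called 22 and 20 of the 37, A442M 26 and 25, G444E-FLAG 20 and 18, G444E 18 and 20, WT-FLAG 23 and 24, and WT 24 and 22, so A442M-FLAG was not the lowest. In a stretch over MYLIP, ATXN1 and STMND1 (chr6:16108937-16947944), with 3 missing regions among 85, A442M-FLAG called 52 and 51, A442M 37 and 38, G444E-FLAG 53 and 42, G444E 42 and 34, WT-FLAG 53 and 48 and WT 25 and 20. Another, over KITLG, DUSP6 and POC1B (chr12:88944143-89449348), held 4 among 35. Its region next to DUSP6, a phosphatase gene that restrains ERK signalling (chr12:89355737-89356182), had 91.9 and 88.9 in A442M, 37.7 in G444E-FLAG replicate 1 only, 71.5 and 60.3 in G444E, 61.4 and 43.2 in WT-FLAG and 94.2 and 93.5 in WT. By percentile, A442M and WT were high there and the 3 other groups lower, the same divide between libraries as in the peaks off the placed chromosomes. By standing, A442M and G444E lay level over the missing regions as a whole.

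In all, 32 genes had at least 2 missing regions within 100 kb, many of them neighbours that share the same pair. This count too is given without a matching one for other regions. NFKBIZ, an inducible regulator of NF-kappaB, had regions with medians of 77.5 and 36.3, which also lay within 100 kb of CEP97 and NXPE3. The stronger (chr3:101810408-101811117) ranged from 73.1 in WT-FLAG replicate 2 to 88.0 in A442M replicate 1. HES1, a Notch target gene, had medians of 52.4 and 30.6, and LOC102724877 shared both. CSF2, IL3 and ACSL6 shared regions of 61.1 and 56.9, and C1QL2, C2orf76 and STEAP3 shared 77.1 and 32.2. CPN1 and DNMBP shared 78.7 and 54.0, and the stronger of these had 40.6 and 69.0 in WT-FLAG and 90.5 and 90.5 in WT. HHIPL2 and TAF1A shared 93.4 and 35.4, BZW1 and CLK1 82.8 and 37.9, and MPZL1 and RCSD1 85.0 and 52.6. UBE2D1 had 83.4 and 57.5, IQCJ 68.2 and 43.0, PIEZO2 68.0 and 58.6, DRD2 63.1 and 61.8, and MOCOS 54.8 and 41.0. ADGRF5, with 4, and MEP1A, ADGRF1, HECW2, DUSP6, POC1B and POC1B-DUSP6, with 3 each, belong to the stretches above, as does CCDC150 with 2.

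Of human miRNAs in the RefSeq table, MIR4671 was the only one within 10 kb of a missing region, at 7426 bp, and that region was weak, ranked 331 of 360 by median percentile.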

How the data were processed

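GATA3 ChIP-seq peaks of 12 libraries (6 groups of 2) were analysed. The submitters' processing notes name MACS2 2.1.4, FastQC and build hg38. The list names read 5-fold peaks, and every list had a lowest score of 5.00 to 5.02. Aligner, control, depth and any other filters: not given in the sources used here. The deposited lists, called per library, have 5 columns without a header, and the authors' score was used only to rank peaks within a list. Peaks were merged at 1 bp overlap with pandas 2.3.3 and numpy 2.4.6 on Python 3.11.15, and the rule was checked on lists with planted regions. Genes were the 20037 protein-coding genes of RefSeq GRCh38.p14 (on chromosomes the same coordinates as hg38, given 1-based). Starts and strands came from the RefSeq promoter table.

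The named regions are the 20 with the highest median percentile, all within 1 kb of a protein-coding gene end or 50 kb of a listed gene, those of genes with at least 2 within 100 kb, and the 3 strongest on each outer side of the rule. The regions, lists and rule were chosen with earlier results of these data known. Regions on other grounds (the widest gaps, the LOC124900719 promoter, the stretches and the miRNA) were named after their values were seen. Of the regions this rule names, 1 is not reported here. No test was made, since the calls of all libraries entered the choice. A share of regions with a GATA motif had been planned and was left out, since it needs a genome sequence, not used here. The alternatives tried were a score of at least 10, lists of equal length, calls that cover 50% of a region, merging over 100 bp, placed chromosomes only, 10 or at least 8 other calls, other distances and each library left out. The standing, the bins of strength and the distance to a transcription start were added after the data were seen.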

Additional observations from a re-analysis of the deposited data

How the results depend on the processing

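No paired analysis was possible because no result comes from a test. The number of regions was 360; it was 958 with lists of equal length, 170 with calls in all 10 other libraries and 654 with calls in at least 8. It ranged from 375 to 1183 with a library left out; without A442M-FLAG replicate 1 it was 1183 and without replicate 2 it was 724. A score of at least 10 gave 357 regions and calls that cover 50% of a region 416, but these counts hide a change of membership: regions under those settings overlapped 226 and 157 of the 360, and those from equal lists 183. Merging over 100 bp kept 359. Which regions are missing thus depends on the threshold of a call. The median percentile of 53.2 became 59.6 with a score of at least 10, 59.5 with equal lists, 73.6 with 50% coverage, 59.7 with all 10 calls, 49.9 with at least 8, and 16.2 as a standing; leaving out a library gave 50.6 to 57.3. The median distance to an A442M-FLAG peak, 8658.5 bp, became 13543 with a score of at least 10, 14572 with equal lists and 0 with 50% coverage, where a peak may lie in the region by construction; it was 7847 to 10658 with a library left out. The share within 1 kb of a gene end, 6.11%, became 9.08% with equal lists and 20.6% within 5 kb, and was 5.19% to 8.03% with a library left out. Listed genes with a region nearby, 6 of 178, were 1 of 178 within 10 kb. The share inside genes stayed between 41.6% and 45.3% in every setting tried. A library left out, or fewer other calls asked for, loosens the rule, while calls in all 10 tighten it. Causes of the shifts beyond this were not tested. With no read counts, how far depth limits the missing calls is unknown.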
